A study of Mus musculus with 5 samples.

Results

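SUZ12 peaks centred more than 1000 bp and up to 5000 bp upstream of transcription start sites were examined in 4 chromatin immunoprecipitation and sequencing (ChIP-seq) libraries of mouse embryonic stem cells (ESCs). Each deposited table links peaks to genes and gives the signed distance of a peak's midpoint from the start site, with negative values upstream. A peak was taken when its links within 5000 bp named exactly 1 gene symbol and its distance fell in this range. The rule found 495 upstream peaks in deltaMBD, 399 in deltaCC, 319 in GFP and 403 in WT. They are 1616 of the 9798 peaks listed in the 4 tables. Since the peaks were selected on their distance and their links, their positions are a description and carry no test.

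All 4 libraries came from male ESCs of strain 129SV with a knockout of Mbd3, grown in conventional ESC medium with LIF, and were made with an antibody against Suz12. The series design describes knockout cells that bear forms of MBD3a lacking the methyl-CpG-binding (MBD) or the coiled-coil domain, which fits the labels deltaMBD and deltaCC. The labels GFP and WT are names alone. WT is taken here as full-length MBD3 and GFP as the control without it. Each label has 1 library, so differences between libraries cannot be set against the spread of replicates, and no test is made. Whether a line is a single clone is not stated. The series also has an input sample (EBRTcH3 cells, no antibody), which was not analysed here. Of 6 genes that mark ESCs, Pou5f1, Nanog, Sox2, Klf4 and Zfp42 were linked to no peak in any library, and Esrrb was listed in all 4 without an upstream peak. A SUZ12 peak table measures no expression and cannot check the cell type or the Mbd3 deletion.

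SUZ12 is a core subunit of PRC2, the Polycomb complex that methylates lysine 27 of histone H3. In ESCs, PRC2 occupies the CpG-rich start sites of silent genes for lineage regulators, often over broad regions that reach beyond the promoter. MBD3 is a subunit of NuRD, a complex that joins nucleosome remodelling to histone deacetylation. A centre beyond 1 kb upstream lies outside the core promoter. The tables give no peak width, so whether such a peak reaches the start site is not known.

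The promoters of 5 genes named in the results are shown; they were chosen for their peaks and do not stand for the whole set. Cdx2 and T carried upstream peaks in every library, and Dbx1 is shown because each library had an upstream centre in nearly the same place. Nt5e had upstream peaks in deltaMBD and WT only, and Hoxd13 in deltaCC and GFP only. Each is the RefSeq window of 300 bases, from 250 bases before the start site to 50 after it, on build GRCm38.p6, written 5′ to 3′ with every CpG in capitals.
Cdx2, chr5:147307200-147307499, strand minus: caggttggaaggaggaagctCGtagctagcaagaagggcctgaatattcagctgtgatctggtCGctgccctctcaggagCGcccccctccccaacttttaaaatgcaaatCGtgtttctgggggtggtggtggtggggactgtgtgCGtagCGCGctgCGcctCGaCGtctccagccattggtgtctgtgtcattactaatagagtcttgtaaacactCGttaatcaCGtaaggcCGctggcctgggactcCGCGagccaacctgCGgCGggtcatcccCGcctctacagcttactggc
T, chr17:8434173-8434472, strand plus: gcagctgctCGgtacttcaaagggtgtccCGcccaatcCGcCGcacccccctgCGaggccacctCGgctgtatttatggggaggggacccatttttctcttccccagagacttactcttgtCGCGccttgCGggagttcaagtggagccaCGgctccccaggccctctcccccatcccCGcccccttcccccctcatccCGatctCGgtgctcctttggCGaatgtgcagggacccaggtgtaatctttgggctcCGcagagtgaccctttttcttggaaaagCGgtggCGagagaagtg
Dbx1, chr7:49636786-49637085, strand minus: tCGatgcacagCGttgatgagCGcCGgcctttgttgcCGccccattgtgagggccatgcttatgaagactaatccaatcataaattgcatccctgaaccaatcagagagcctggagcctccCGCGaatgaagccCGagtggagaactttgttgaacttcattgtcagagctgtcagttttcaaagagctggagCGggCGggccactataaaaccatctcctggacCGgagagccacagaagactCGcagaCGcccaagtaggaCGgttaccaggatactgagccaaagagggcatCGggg
Nt5e, chr9:88327359-88327658, strand plus: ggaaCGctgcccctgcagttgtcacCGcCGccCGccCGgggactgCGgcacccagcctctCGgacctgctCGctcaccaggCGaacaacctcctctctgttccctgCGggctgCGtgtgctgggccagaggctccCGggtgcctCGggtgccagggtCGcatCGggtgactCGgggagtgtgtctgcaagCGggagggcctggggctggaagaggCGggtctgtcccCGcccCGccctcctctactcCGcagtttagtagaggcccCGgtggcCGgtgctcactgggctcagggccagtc
Hoxd13, chr2:74667975-74668274, strand plus: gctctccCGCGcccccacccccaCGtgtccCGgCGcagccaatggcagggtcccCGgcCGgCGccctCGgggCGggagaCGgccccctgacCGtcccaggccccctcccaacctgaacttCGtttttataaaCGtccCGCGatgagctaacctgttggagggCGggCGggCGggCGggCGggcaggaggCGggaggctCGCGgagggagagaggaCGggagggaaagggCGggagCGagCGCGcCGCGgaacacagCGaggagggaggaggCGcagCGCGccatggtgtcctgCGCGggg
Cdx2 holds 18 CpG in its window, T holds 17, Dbx1 holds 15, Nt5e holds 23 and Hoxd13 holds 37. Over all 27025 RefSeq windows of this length the median was 7 CpG, and 94.2% held at least 1. Of the 61 genes named by the rule that had a window, 51 held more than 7 CpG and 10 held 7 or fewer, among them Sspn and Gm5796 with 2 each and Arpp21 with 5. The upstream centres themselves lie outside these windows. Their own sequence is not printed, because the tables hold no coordinates. The named genes were picked by rule and not set beside genes without an upstream peak, so these counts show no trait of upstream genes. A window was found for 64.8% of upstream genes in deltaMBD, 68.7% in deltaCC, 65.1% in GFP and 69.0% in WT. For listed genes without an upstream peak it was 69.0% in deltaMBD, 67.6% in deltaCC, 68.7% in GFP and 68.4% in WT. CpG content was not compared over the set.

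Upstream peaks were a similar minority of each table. Among peaks linked to 1 gene, they made up 17.1% in deltaMBD, 18.5% in deltaCC, 17.4% in GFP and 15.5% in WT. The exact 95% binomial (Clopper-Pearson) intervals were 15.7 to 18.5% in deltaMBD, 16.9 to 20.2% in deltaCC, 15.7 to 19.2% in GFP and 14.1 to 16.9% in WT. Intervals here and below cover counting error over peaks or genes only, and peaks at the same gene are not independent. Centres over 1000 bp downstream were 1.98 times as many as upstream centres in deltaMBD, 1.86 times in deltaCC, 2.11 times in GFP and 2.07 times in WT.

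The upstream centres lay closest to the promoter in deltaMBD and WT. Their median distance was -2110 bp in deltaMBD, -2452 bp in deltaCC, -2385 bp in GFP and -2172 bp in WT. The innermost 500 bp, up to 1500 bp upstream, held 141 peaks (28.5%) in deltaMBD, 76 (19.0%) in deltaCC, 71 (22.3%) in GFP and 104 (25.8%) in WT. The mirrored bin downstream held between 32.3% and 34.0% of downstream peaks in all 4 libraries. The outermost 1000 bp held 15.4% of upstream peaks in deltaMBD, 18.3% in deltaCC, 17.2% in GFP and 10.9% in WT. Downstream the same bin held 10% in deltaMBD, 13.0% in deltaCC, 12.8% in GFP and 9.46% in WT. In each library the upstream peaks were thus spread farther out than the downstream peaks.

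**Figure D1:**
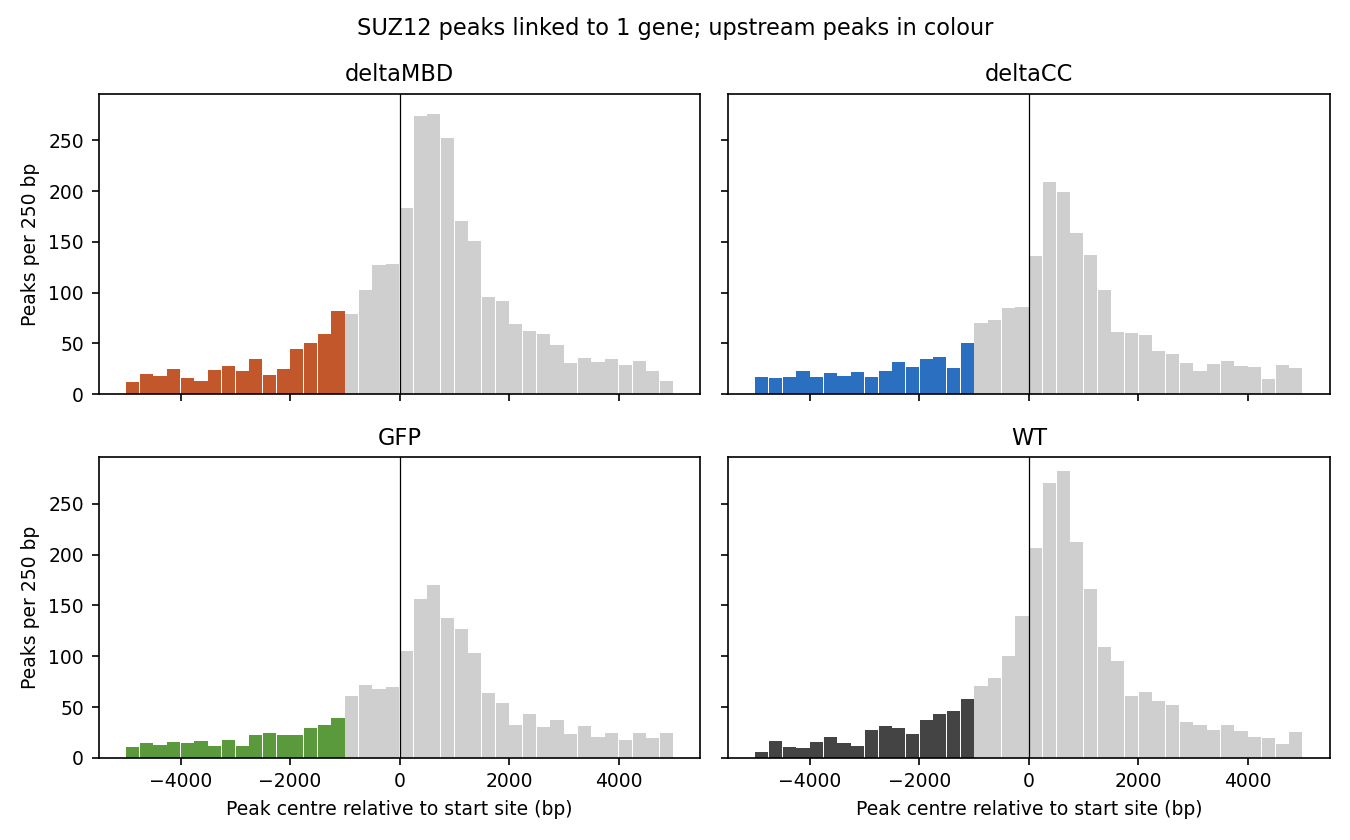
Number of SUZ12 peaks linked to 1 gene by signed distance from the start site in 250 bp bins, with a panel for each of deltaMBD, deltaCC, GFP and WT and the upstream peaks coloured. In every panel the highest bins lie within 1000 bp downstream of the start site, and the coloured bins add up to fewer peaks than the mirrored range downstream, with 495 upstream peaks in deltaMBD, 399 in deltaCC, 319 in GFP and 403 in WT.

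The limits of the rule cut through a continuous distribution. Just inside the inner limit lay Gm9945 at -1006 bp in deltaCC and 5730596B20Rik at -1010 bp in GFP, while Ebf1 in deltaMBD and Htr1b in WT lay on the limit itself. Just outside it lay Dhh at -990 bp in deltaMBD, Pcdh19 at -991 bp in deltaCC, Tdrd6 at -998 bp in GFP and Trim47 at -999 bp in WT. The outermost upstream peaks were at 9230102O04Rik at -4960 bp in deltaMBD and -4999 bp in deltaCC, at Tbx18 at -4944 bp in GFP and at Hoxc4 at -4977 bp in WT.

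Most upstream peaks had neighbours at the same gene. Another linked peak was listed in the same library for 89.3% of upstream peaks in deltaMBD, 91.7% in deltaCC, 88.1% in GFP and 88.1% in WT. The same share over all linked peaks was not computed. In every one of these cases a neighbour had the adjoining peak number, but peak numbers follow position, so this was largely set in advance. The median gap between centres was 1521 bp in deltaMBD, 1118 bp in deltaCC, 1484 bp in GFP and 1519 bp in WT. The neighbour lay within 1000 bp of the start site for 54.5% in deltaMBD, 54.1% in deltaCC, 51.7% in GFP and 51.1% in WT. A further upstream peak was present for 41.8% in deltaMBD, 60.4% in deltaCC, 51.1% in GFP and 39% in WT. The interval over peaks was 55.4 to 65.2% in deltaCC and 34.2 to 43.9% in WT. Both are too narrow, since a gene with several upstream peaks is counted once for each. They do not measure the spread between libraries. By gene, 58 of 259 upstream genes in deltaCC had 2 upstream peaks and 38 had 3 or more. In WT it was 47 and 20 of 313. Genes with an upstream peak had on average 2.64 linked peaks in deltaMBD, 3.12 in deltaCC, 2.8 in GFP and 2.43 in WT. Listed genes without one had 1.6 in deltaMBD, 1.58 in deltaCC, 1.59 in GFP and 1.47 in WT, a gap that the choice of genes with a peak in a further place sets in part.

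Some genes had 3 or 4 upstream peaks in a library. Bahd1, a factor of heterochromatin, had 4 upstream peaks in deltaMBD at -4202, -3542, -2167 and -1076 bp, 3 in deltaCC, 1 in GFP at -4587 bp and 4 in WT at -4712, -3935, -2915 and -2075 bp. Foxd3, a forkhead factor of the neural crest, had 4 in GFP at -4555, -3518, -2114 and -1524 bp and 3 in deltaCC at -4779, -2529 and -1097 bp. Its single peak in deltaMBD was at 566 bp and in WT at 565 bp, both downstream. Bcor, a corepressor found in a Polycomb PRC1 complex, had 4 in deltaCC at -4117, -3173, -2108 and -1195 bp and none in the other libraries. Genes outside the families were also among those with the most. Arpp21, which encodes a cAMP-regulated phosphoprotein, had 4 upstream peaks in deltaMBD, 2 in deltaCC, 1 in GFP and 3 in WT. Ankrd63 had 2 in deltaMBD, 4 in deltaCC, 1 in GFP and 1 in WT, and Aatf had 3 in deltaMBD, 3 in deltaCC, 3 in GFP and 1 in WT. No gene had more than 4 in any library.

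The upstream peaks lay at 381 genes in deltaMBD, 259 in deltaCC, 229 in GFP and 313 in WT. These are 22.7% of the genes listed in deltaMBD, 21.2% in deltaCC, 21.8% in GFP and 18.8% in WT. Of all 21900 protein-coding symbols in the RefSeq table, 1.64% had an upstream peak in deltaMBD, 1.12% in deltaCC, 0.959% in GFP and 1.35% in WT. Together 613 genes had one in at least 1 library, and 469 of these were listed with some peak in all 4. An upstream peak stood in a single library at 296 genes, in 2 libraries at 151, in 3 at 80 and in all 4 at 86. Of the 296, 281 were listed in at least 1 other library through peaks elsewhere, and 200 were listed in all 4. The largest groups were 130 genes with an upstream peak in deltaMBD alone, 86 in all 4, 84 in WT alone and 58 in deltaMBD and WT alone.

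Genes for transcription factors held a large part of them. The families had been chosen with results of these data known, and their counts are a description. Of 332 symbols in the 13 transcription factor families, an upstream peak was listed for 94 (28.3%) in deltaMBD, 106 (31.9%) in deltaCC, 98 (29.5%) in GFP and 82 (24.7%) in WT. The shares of all protein-coding symbols given above lie between 0.959% and 1.64%. Of the factors that were listed with any peak, 41.8% had an upstream peak in deltaMBD, 46.5% in deltaCC, 44.3% in GFP and 36.8% in WT. In at least 1 library, 172 of the 332 had one, which is 51.8%, against 2.63% of all protein-coding symbols.

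The Hox genes encode the homeobox factors of the body axis. Of 39, an upstream peak was listed at 13 in deltaMBD, 17 in deltaCC, 19 in GFP and 8 in WT. Any linked peak was listed at 23 in deltaMBD, 35 in deltaCC, 34 in GFP and 20 in WT. Of these listed Hox genes, 56.5% (interval 34.5 to 76.8) had an upstream peak in deltaMBD and 48.6% (31.4 to 66.0) in deltaCC. The share was 55.9% (37.9 to 72.8) in GFP and 40.0% (19.1 to 63.9) in WT. Of all listed genes it was 22.7% in deltaMBD, 21.2% in deltaCC, 21.8% in GFP and 18.8% in WT. The upstream Hox peaks numbered 19 in deltaMBD, 36 in deltaCC, 37 in GFP and 16 in WT. Hoxc4, Hoxc12, Hoxa4 and Hoxb9 had one in all 4 libraries. Hoxc8 had upstream peaks in deltaCC at -4409, -3302, -2437 and -1887 bp and in GFP at -4721, -4222 and -1713 bp, and in neither deltaMBD nor WT. Hoxb13 had another pattern, with upstream peaks in deltaMBD at -2713, -2222 and -1576 bp, in deltaCC at -4899, -2364 and -1550 bp and in WT at -3293, -2773 and -1750 bp, and none in GFP. It was still listed in GFP, with 2 other linked peaks. In dense clusters a peak is linked only to its nearest genes and is left out when it links to more than 1, so the Hox counts leave out centres between close neighbours.

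Other homeobox families also had upstream peaks. Of 53 head and eye homeobox symbols, 18 had an upstream peak in deltaMBD, 23 in deltaCC, 20 in GFP and 21 in WT. These were 38.3% of the listed ones in deltaMBD, 50.0% in deltaCC, 45.5% in GFP and 44.7% in WT. The shares of all listed genes were 22.7% in deltaMBD, 21.2% in deltaCC, 21.8% in GFP and 18.8% in WT. Of 12 LIM homeobox genes, which specify neurons and limbs, 3 had one in deltaMBD, 7 in deltaCC, 4 in GFP and 3 in WT, although 11 were listed in each library. These were 27.3% of the listed ones in deltaMBD, 63.6% in deltaCC, 36.4% in GFP and 27.3% in WT. The interval in deltaCC was 30.8 to 89.1%, and the deltaMBD share was close to that of all its listed genes. Lhx5, for example, had upstream peaks in deltaCC at -4096 and -2017 bp and in no other library. Pax6, a regulator of the eye and brain, had one in GFP at -3973 bp and in WT at -4883 bp.

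Of 17 T-box genes, 9 had an upstream peak in deltaMBD, 6 in deltaCC, 6 in GFP and 7 in WT, and T, Eomes, Tbx5, Tbx15 and Tbx18 had one in all 4. Shares of the listed T-box genes were 81.8% in deltaMBD, 75.0% in deltaCC, 60.0% in GFP and 70.0% in WT. Of 49 basic helix-loop-helix (bHLH) symbols, which include proneural factors, 16 had one in deltaMBD, 14 in deltaCC, 13 in GFP and 11 in WT. Shares of the listed bHLH genes were 50.0% in deltaMBD, 45.2% in deltaCC, 44.8% in GFP and 33.3% in WT. Neurog2 had a single upstream peak in deltaMBD at -4408 bp, in deltaCC at -4696 bp and in GFP at -4365 bp, and none in WT. Of 19 Sox genes, 2 had one in deltaMBD, 4 in deltaCC, none in GFP and 2 in WT. In deltaCC these were Sox3, Sox7, Sox9 and the endoderm factor Sox17, the last at -2008 bp. Shares of the listed Sox genes were 22.2% in deltaMBD, 40.0% in deltaCC, 0.0% in GFP and 20.0% in WT. All listed genes had shares of 22.7% in deltaMBD, 21.2% in deltaCC, 21.8% in GFP and 18.8% in WT. The Sox shares in deltaMBD and WT were thus close to those of their libraries.

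Genes for signals had an upstream peak less often than genes for transcription factors. The 194 symbols cover ligands, receptors and modulators of the Wnt, FGF, TGF-beta, Hedgehog, Notch and axon guidance pathways. Of these, 26 (13.4%) had one in deltaMBD, 15 (7.73%) in deltaCC, 10 (5.15%) in GFP and 18 (9.28%) in WT. Of all protein-coding symbols, 1.64% had one in deltaMBD, 1.12% in deltaCC, 0.959% in GFP and 1.35% in WT. Of signalling genes listed with any peak, 28.3% had one in deltaMBD, 20.0% in deltaCC, 16.1% in GFP and 20.0% in WT. Of all listed genes it was 22.7% in deltaMBD, 21.2% in deltaCC, 21.8% in GFP and 18.8% in WT. The Notch ligand Dll4 had an upstream peak at -1990 bp in deltaMBD, -4408 and -2599 bp in deltaCC, -2263 bp in GFP and -2240 bp in WT. Shh, the Hedgehog ligand of the neural tube and limb, had one at -1862 bp in deltaMBD, -1857 bp in deltaCC and -2146 bp in WT, and none in GFP. The Wnt ligands Wnt3 and Wnt11 had one in all 4. Of 68 axon guidance symbols, 8 (11.8%) had one in deltaMBD, 1 (1.47%) in deltaCC, 3 (4.41%) in GFP and 5 (7.35%) in WT.

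Membrane and matrix genes had upstream peaks in every library. Of 784 symbols for solute carriers, ion channels, G-protein receptors and extracellular matrix proteins, 31 (3.95%) had an upstream peak in deltaMBD, 12 (1.53%) in deltaCC, 12 (1.53%) in GFP and 18 (2.3%) in WT. Of these genes that were listed with any peak, 23% (interval 16.2 to 31.0) had one in deltaMBD, 12.8% (6.77 to 21.2) in deltaCC, 15.0% (8.0 to 24.7) in GFP and 12.7% (7.69 to 19.3) in WT. The shares of all listed genes given above were 22.7% in deltaMBD, 21.2% in deltaCC, 21.8% in GFP and 18.8% in WT, so the deltaMBD share of this class was close to that of its table. The potassium channel gene Kcnk9 had one in deltaMBD at -1017 bp, in GFP at -1097 bp and in WT at -1148 bp. Of 30 Polycomb and related symbols, 2 had one in deltaMBD, 4 in deltaCC, 3 in GFP and 2 in WT. Only 5 of them were listed in each of deltaMBD, deltaCC and GFP and 4 in WT. Shares of these listed ones were 40.0% in deltaMBD, 80.0% in deltaCC, 60.0% in GFP and 50.0% in WT. No housekeeping gene of 155 had an upstream peak in any library, and the exact interval of a share of 0 reaches 2.35%, above the shares of all protein-coding symbols.

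Upstream peaks of transcription factor genes lay farther out than those of membrane and matrix genes in each library. The median distance at transcription factor genes was -3044 bp in deltaMBD, -2737 bp in deltaCC, -2716 bp in GFP and -2811 bp in WT. At membrane and matrix genes it was -1508 bp over 36 peaks in deltaMBD, -1287 bp over 13 in deltaCC, -1384 bp over 12 in GFP and -1680 bp over 18 in WT. Signalling genes lay between, at -1990 bp in deltaMBD, -1888 bp in deltaCC, -1823 bp in GFP and -2070 bp in WT. More than 2000 bp upstream lay 76.4% of the transcription factor peaks in deltaMBD, 71.0% in deltaCC, 69.6% in GFP and 69.3% in WT. For membrane and matrix genes these shares were 13.9% in deltaMBD, 23.1% in deltaCC, 8.33% in GFP and 22.2% in WT. Downstream of the start site the gap between transcription factor genes and membrane and matrix genes was smaller. There the medians at transcription factor genes were 2538 bp in deltaMBD, 2498 bp in deltaCC, 2466 bp in GFP and 2273 bp in WT, and at membrane and matrix genes 1740 bp in deltaMBD, 1918 bp in deltaCC, 1585 bp in GFP and 1694 bp in WT. The downstream median of signalling genes, 1800 bp in deltaCC and 1579 bp in WT, was below that of membrane and matrix genes in these 2 libraries.

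**Figure D2:**
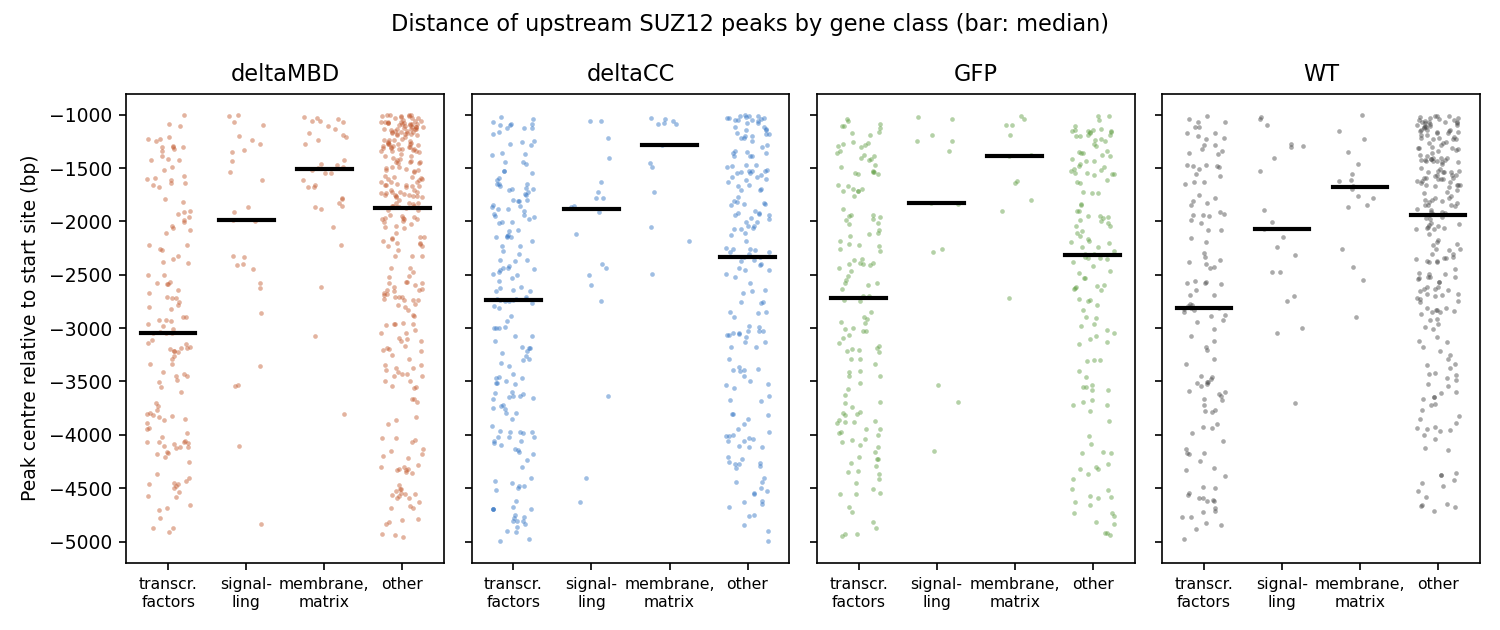
Distance in bp of each upstream peak from the start site by gene class, for deltaMBD, deltaCC, GFP and WT, with a bar at each median. The medians of the transcription factor genes, from -3044 to -2716 bp, lie farther upstream than those of the membrane and matrix genes, from -1680 to -1287 bp, in every library.

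At 86 genes all 4 libraries had an upstream peak, and 37 of these genes belong to the families. With the closest set of centres, 1 per library, 53 of the 86 had all 4 centres within 1000 bp of each other. The closest were at Kpna1, an importin that carries proteins into the nucleus, with -1570 bp in deltaMBD and -1568 bp in each of deltaCC, GFP and WT, a span of 2 bp. At Sspn, which encodes sarcospan of the muscle membrane, the centres were -1168 bp in deltaMBD, -1183 bp in deltaCC, -1192 bp in GFP and -1188 bp in WT. Both genes had no other linked peak in any library. Whether the input has signal at these nearly fixed centres was not tested, so they too are uncertain. Dbx1, a homeobox gene of spinal interneurons whose promoter is printed above, had its closest set at -2568 bp in deltaMBD, -2755 bp in deltaCC, -2601 bp in GFP and -2565 bp in WT. A further Dbx1 upstream peak stood at -1340 bp in deltaCC and -1342 bp in GFP, with no such peak in deltaMBD or WT. Cdx2, a trophectoderm and hindgut homeobox factor, had upstream peaks at -3807 and -2674 bp in deltaMBD, at -3972 and -2366 bp in deltaCC, at -4231 and -2600 bp in GFP, and at -4624, -4174 and -3544 bp in WT. Its closest set spanned 424 bp. Predicted genes were also among the closest, with a span of 11 bp at Gm10720 and 102 bp at Gm10419. Peaks at such predicted genes, which can have near-identical copies, are uncertain.

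At other genes the 4 centres were spread over much of the range. For T, which encodes Brachyury of the mesoderm, they were at -4085 bp in deltaMBD, -2749 bp in deltaCC, -1540 bp in GFP and -2438 bp in WT. Eomes, of the trophectoderm and mesendoderm, had them at -2756 bp in deltaMBD, -1244 bp in deltaCC, -2018 bp in GFP, and -2809 and -1172 bp in WT. At Hand1, a factor of the mesoderm and heart, the span was 2121 bp.

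A match was counted when another library had any linked peak at the same gene with its centre within 1000 bp. Upstream peaks were matched less often than peaks at large in all 12 directed pairs of libraries. The share of upstream peaks matched ran from 34.1% (deltaMBD peaks in GFP) to 65.0% (WT peaks in deltaMBD). Over the whole range it was also below the share of downstream peaks and of peaks within 1000 bp of the start site in all 12. With a window of 500 bp this held in all 12 as well. With 2000 bp it held in 9 of 12 against all linked peaks, 11 of 12 against downstream peaks and 8 of 12 against peaks at the start site. Against downstream peaks the order depended on distance. Up to 2000 bp the upstream share was the lower in every pair, such as 31.8% against 47.8% for deltaMBD peaks in GFP. Beyond 4000 bp it was the higher in most pairs, such as 42.1% against 21.4% for deltaMBD peaks in GFP. There it was the lower for deltaCC peaks in WT (28.8% against 38.1%) and GFP peaks in WT (29.1% against 30.2%). Where a match was found, the median distance between the 2 centres was between 268 and 375 bp over the 12 pairs.

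**Figure D3:**
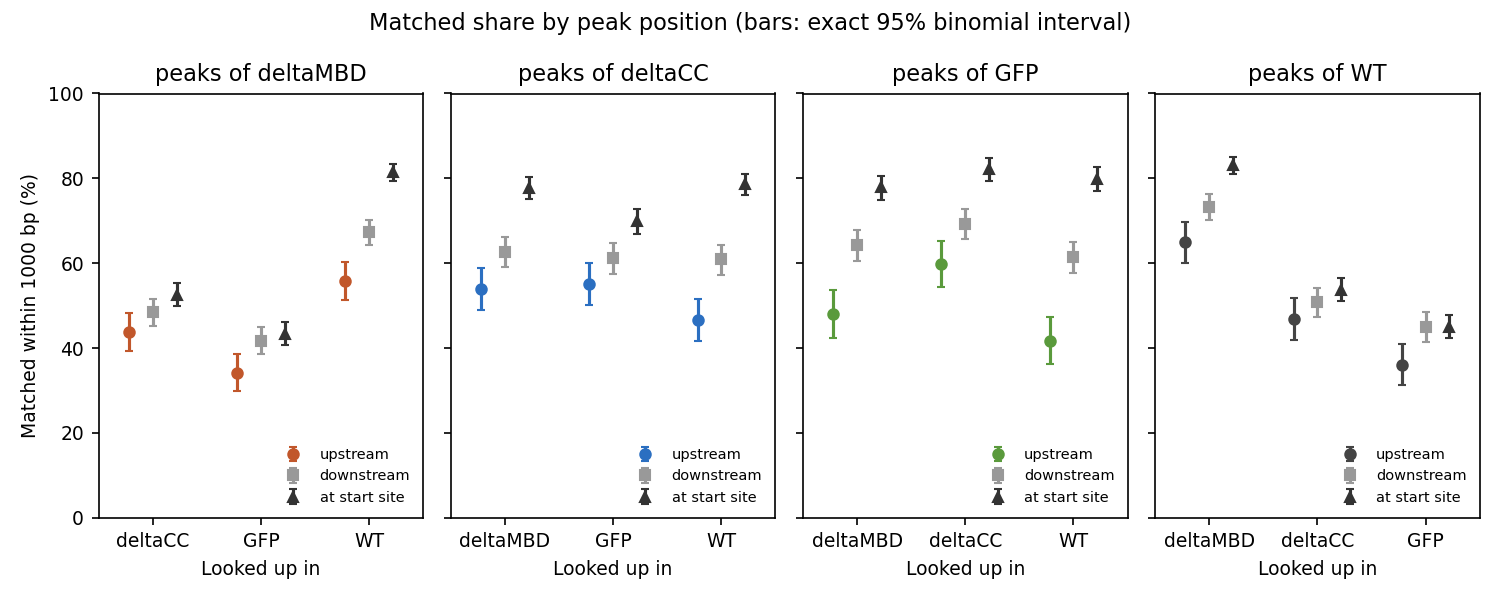
Percentage of peaks matched within 1000 bp at the same gene in another library, for upstream, downstream and start-site peaks, in each of the 12 directed pairs, with exact 95% intervals. The upstream share is the lowest of the 3 in every pair.

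Most unmatched upstream peaks lay at a gene that the other library listed. Among unmatched upstream peaks, the gene was still listed in the other library through a peak elsewhere in 73.3% (WT peaks in GFP) to 94.1% (deltaMBD peaks in WT). The nearest of these other peaks lay on the side of the start site in 74.8% to 97.3%, a direction that the limit of 5 kb partly sets. Matched in all 3 other libraries were 17.8% of upstream peaks in deltaMBD, 23.6% in deltaCC, 25.4% in GFP and 21.3% in WT. Matched in none were 25.7% in deltaMBD, 17.8% in deltaCC, 21.6% in GFP and 21.1% in WT. The gene itself was listed in no other library for 6 upstream peaks in deltaMBD, 1 in deltaCC, 0 in GFP and 8 in WT. The shares in this paragraph were not set beside those of all linked peaks. Upstream genes also had more linked peaks than other listed genes, which makes a listing elsewhere more likely.

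**Figure D4:**
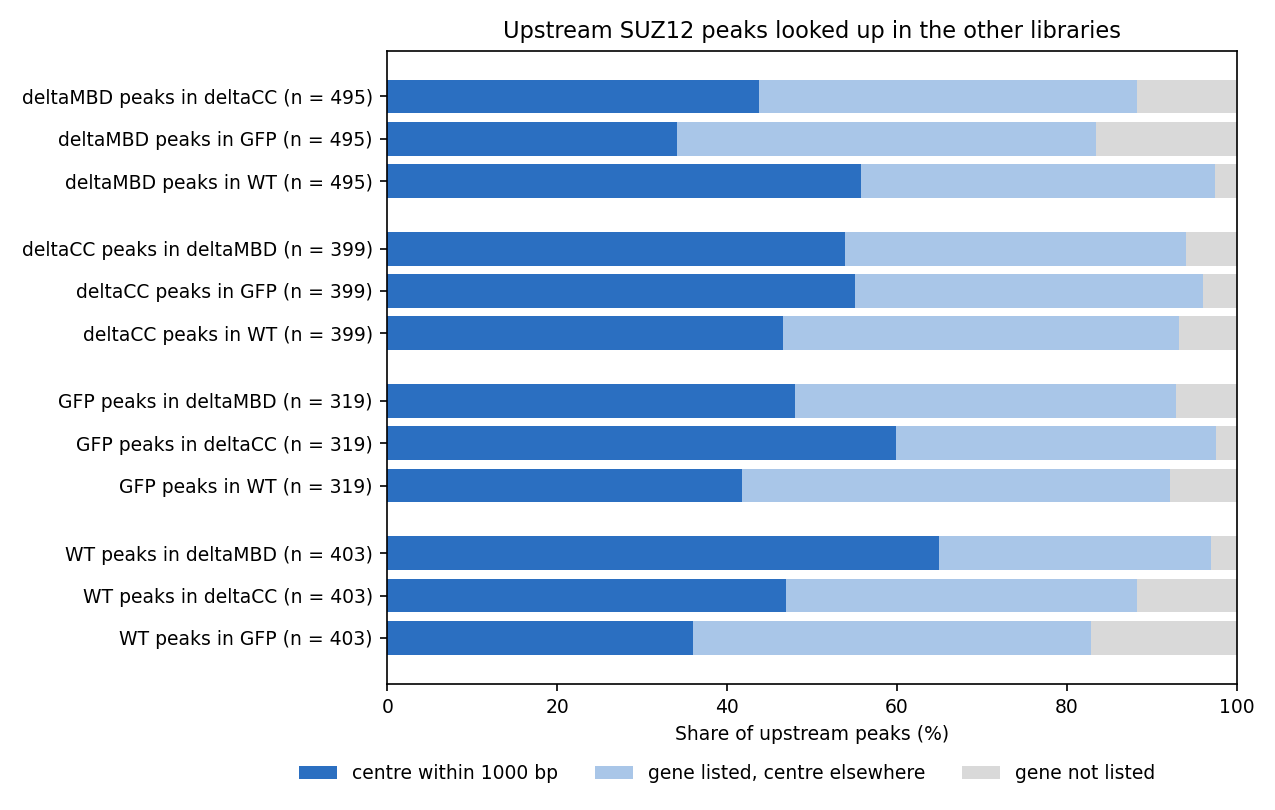
Fate of upstream peaks in each other library as percentages of the upstream peaks, divided into matched within 1000 bp, gene listed with its centre elsewhere, and gene not listed, for the 12 directed pairs. The part with the gene not listed is the smallest of the 3 in every pair, from 2.51% for GFP peaks in deltaCC to 17.1% for WT peaks in GFP.

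The comparison of deltaMBD with WT asks about upstream peaks without the methyl-CpG-binding domain. Of the 495 deltaMBD upstream peaks, 276 (55.8%, interval 51.3 to 60.2) had a WT peak within 1000 bp, against 72.2% of all linked deltaMBD peaks. A further 206 (41.6%) lay at a gene listed in WT with its centre elsewhere, and 13 (2.63%) at a gene not listed in WT, against 6.06% of all deltaMBD peaks. Of the 403 WT upstream peaks, 262 (65.0%, 60.1 to 69.7) had a deltaMBD peak, against 77.2% of all WT peaks, and 12 (2.98%) lay at a gene not listed in deltaMBD, against 6.74%. An upstream peak in both libraries was found at 199 genes, which are 52.2% of the deltaMBD and 63.6% of the WT upstream genes. Here and below, such gene overlaps were not set beside the overlap of all listed genes, so they are not read as high or low.

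Named genes illustrate both directions. Hoxc6 (-3223 bp), Tbx4 (-3763 and -2927 bp) and Acan (-1497 bp), which encodes the cartilage proteoglycan aggrecan, had upstream peaks in deltaMBD and were not listed in WT. Tbx4, a T-box factor of the hindlimb, also had upstream peaks in GFP at -3203 and -1428 bp. In the other direction, Otx1 (-4610 and -4132 bp), Sox14 (-2823 bp) and Tfap2c (-1071 bp) had upstream peaks in WT and were not listed in deltaMBD. Tfap2c, an AP-2 factor of the trophectoderm and germ line, was listed in no other library. Otx1, a homeobox factor of the brain, had one in deltaCC at -3233 bp.

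The comparison of deltaCC with WT asks the same of the coiled-coil domain. Of the 399 deltaCC upstream peaks, 186 (46.6%, interval 41.6 to 51.6) were matched in WT, against 66.4% of all linked deltaCC peaks, and 27 (6.77%) lay at a gene not listed in WT, against 7.36%. Of the WT upstream peaks, 189 (46.9%, 41.9 to 51.9) were matched in deltaCC, against 52.0% of all WT peaks, and 47 (11.7%) lay at a gene not listed there, against 28.9%. An upstream peak in both was found at 145 genes, which are 56.0% of the deltaCC and 46.3% of the WT upstream genes. The match of deltaCC peaks in WT was 56.1% (47.7 to 64.2) up to 2000 bp upstream and 28.8% (18.8 to 40.6) beyond 4000 bp. For GFP peaks in WT these shares were 50.8% (41.6 to 60.0) and 29.1% (17.6 to 42.9), and for WT peaks in deltaCC 46.2% (38.8 to 53.7) and 52.3% (36.7 to 67.5). The deltaCC peaks were matched in deltaMBD at 54.1% (45.7 to 62.3) and 56.2% (44.1 to 67.8) in these bins. Downstream peaks also had lower shares in the outer bin. The deltaCC ones were matched in WT at 75.1% and 38.1% and in deltaMBD at 76.2% and 33.0%. For downstream GFP peaks in WT it was 77.9% and 30.2%, and for WT ones in deltaCC 58.0% and 45.6%. A peak in the outer bin can be matched only by a centre within the linked range of 5 kb, which holds for every library.

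By gene class, deltaCC upstream peaks at transcription factor genes were matched in WT in 36.6% (29.6 to 44.0) of 183, and those at genes outside the families in 54.6% (47.1 to 62.0) of 183. The direction of this difference was not shared by all pairs. Peaks at transcription factor genes had the lower share in 6 of the 12 pairs, the higher share in 5 and the same share in 1. For deltaMBD peaks in deltaCC it was 52.8% at transcription factor genes and 41.6% outside the families, and for deltaMBD peaks in GFP 43.8% and 31.5%. For deltaCC peaks in GFP both were 55.7%. Of the 36 upstream peaks at Hox genes, 12 were matched in WT, 15 lay at a Hox gene listed with its centre elsewhere and 9 at one not listed. Hoxb4 (-4808, -3512 and -1849 bp), Hoxc6 (-4838, -3648 and -2473 bp), Hoxc10 (-3459 bp), Hoxa11 (-1653 bp) and Hoxd13 (-3330 bp) were the Hox genes with upstream peaks in deltaCC and no linked peak in WT. In the other direction Tbx3, a T-box factor of limb and mesoderm, had an upstream peak in WT at -2567 bp and was not listed in deltaCC. The potassium channel gene Kcnb2 had one in WT at -1612 bp and was likewise not listed in deltaCC.

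The comparison of GFP with WT asks, on the reading of the labels above, which upstream peaks are listed without MBD3. Of the 319 GFP upstream peaks, 133 (41.7%, interval 36.2 to 47.3) were matched in WT, against 65.9% of all linked GFP peaks. A further 161 (50.5%) lay at a gene listed in WT with its centre elsewhere, and 25 (7.84%) at a gene not listed, against 6.5%. GFP peaks downstream were matched in WT in 61.4% (57.6 to 65.1) and those within 1000 bp of the start site in 79.9% (77.0 to 82.6). Of the WT upstream peaks, 145 (36.0%, 31.3 to 40.9) were matched in GFP, against 43.5% of all WT peaks, and 69 (17.1%) lay at a gene not listed, against 36.5%. An upstream peak in both was found at 123 genes, which are 53.7% of the GFP and 39.3% of the WT upstream genes.

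Upstream peaks that stood alone at their gene had the higher matched share in 11 of the 12 pairs, and the intervals of alone and accompanied peaks overlapped in 10 of the 12. In most pairs the lone peaks also lay more often at a gene not listed in the other library. For deltaMBD peaks in deltaCC this was 35.8% alone against 8.82% with a neighbour. The order was turned only for GFP peaks in deltaMBD (5.26% against 7.47%) and in WT (5.26% against 8.19%). Of the 38 GFP upstream peaks that were alone, 30 (78.9%, interval 62.7 to 90.4) were matched in WT. Of the 281 GFP ones with a neighbour it was 36.7% (31.0 to 42.6). For WT peaks in deltaCC the shares were close, at 47.9% (33.3 to 62.8) alone and 46.8% (41.5 to 52.1) with a neighbour. In deltaCC the GFP shares were 71.1% (54.1 to 84.6) alone and 58.4% (52.4 to 64.2) with a neighbour. For deltaCC peaks in GFP the order was turned, with 51.5% (33.5 to 69.2) alone and 55.5% (50.2 to 60.6) with a neighbour. At transcription factor genes 30.4% (23.1 to 38.5) of 148 GFP upstream peaks were matched in WT, and at genes outside the families 50.7% (42.3 to 59.0) of 146. At Hox genes 6 of 37 (16.2%, 6.19 to 32.0) were matched, 20 lay at a gene listed elsewhere and 11 at a gene not listed in WT. Those at unlisted genes included Hoxb3 (-1101 bp), Hoxb4 (-3631 and -2385 bp), Hoxb6 (-3868 and -3137 bp), Hoxc6 (-4541 and -1665 bp) and Hoxc10 (-3695 and -2023 bp). In the other direction, the Hox gene Hoxb1 had an upstream peak in WT at -1559 bp and Barhl1, a homeobox factor of neurons and the inner ear, at -1492 bp, and neither was listed in GFP.

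GFP and deltaCC upstream peaks were matched in each other more often than either in WT. Of the deltaCC upstream peaks, 220 (55.1%, interval 50.1 to 60.1) had a GFP peak, against 63.8% of all deltaCC peaks, and 16 (4.01%) lay at a gene not listed in GFP, against 12.3%. Of the GFP upstream peaks, 191 (59.9%, 54.3 to 65.3) had a deltaCC peak, against 73.6% of all GFP peaks, and 8 (2.51%) lay at a gene not listed in deltaCC, against 4.75%. An upstream peak in both was found at 147 genes, which are 56.8% of the deltaCC and 64.2% of the GFP upstream genes. Of the 36 deltaCC upstream peaks at Hox genes, 24 (66.7%, 49.0 to 81.4) were matched in GFP, and of the 37 GFP ones 19 (51.4%, 34.4 to 68.1) in deltaCC. Upstream Hox peaks of deltaMBD were matched in deltaCC in 13 of 19 (68.4%, 43.4 to 87.4) and those of WT in 11 of 16 (68.8%, 41.3 to 89.0).

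The remaining pairs set deltaMBD beside deltaCC and GFP. Of the deltaMBD upstream peaks, 217 (43.8%, interval 39.4 to 48.3) were matched in deltaCC, against 50.0% of all deltaMBD peaks, and 58 (11.7%) lay at a gene not listed there, against 27.8%. In GFP 169 (34.1%, 30.0 to 38.5) were matched, against 41.3%, and 82 (16.6%) lay at a gene not listed, against 35.8%. Of the deltaCC upstream peaks, 215 (53.9%, 48.9 to 58.9) were matched in deltaMBD, against 68.0% of all deltaCC peaks, and 24 (6.02%) lay at a gene not listed, against 7.0%. Of the GFP upstream peaks, 153 (48.0%, 42.4 to 53.6) were matched in deltaMBD, against 67.5% of all GFP peaks, and 23 (7.21%) lay at a gene not listed, against 6.08%. The tables differ in length, with 2986 linked peaks in deltaMBD, 2243 in deltaCC, 1893 in GFP and 2671 in WT, and a longer table offers more centres to match. The number of reads behind each is not given, and the part of depth in these shares was not tested.

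At 58 genes deltaMBD and WT alone had an upstream peak. Of these, 40 were listed through other peaks in both deltaCC and GFP, 5 in 1 of them and 13 in neither. Among all linked deltaMBD peaks, 27.8% lay at a gene not listed in deltaCC and 35.8% at one not listed in GFP. Among all WT peaks these shares were 28.9% and 36.5%. They count peaks and take 1 other library at a time, so they are only a rough measure beside the 13 genes, which are not shown to be particular to deltaMBD and WT. The 13 include Tbx3, at -2390 bp in deltaMBD and -2567 bp in WT. Nt5e, which encodes the ecto-nucleotidase CD73, had upstream peaks at -1701 and -1145 bp in deltaMBD and at -1324 bp in WT, beside the CpG-rich promoter printed above. Nr3c1, the glucocorticoid receptor, had its only peaks at -1825 bp in deltaMBD and -2335 bp in WT. Lmo4, a LIM-only cofactor, had an upstream peak at -1271 bp in deltaMBD and -1596 bp in WT. Galnt3, a glycosyltransferase, had one at -1090 bp in deltaMBD and -1418 bp in WT, and Bcl2l11, the apoptosis gene for BIM, at -1960 bp in deltaMBD and -1721 bp in WT. A930004D18Rik had 3 upstream peaks in deltaMBD and 2 in WT, and the predicted gene Gm5796 is the last that the naming rule gives.

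At 36 genes deltaCC and GFP alone had an upstream peak. Of these, 25 were listed through other peaks in both deltaMBD and WT, 3 in 1 of them and 8 in neither. Among all linked deltaCC peaks, 7.0% lay at a gene not listed in deltaMBD and 7.36% at one not listed in WT. Among all GFP peaks these shares were 6.08% and 6.5%. They count peaks and take 1 other library at a time, so they are only a rough measure beside the 8 genes. Hoxd13, the most posterior HoxD gene, had its upstream peak at -3330 bp in deltaCC and -2134 bp in GFP, which are over 1000 bp apart. Cbx8, a chromodomain subunit of the Polycomb complex PRC1, had one at -4028 bp in deltaCC and -1610 bp in GFP. Cacnb3, a calcium channel subunit, had upstream peaks at -2182 and -1491 bp in deltaCC and at -1623 bp in GFP. Hoxb4 is given above, and the others were BC061194 and Gm13275, Gm13288 and Ifnz of the interferon zeta cluster. Genes of that cluster are close copies of each other, so their peaks are uncertain.

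Upstream peaks shared by 2 libraries alone were fewer in the other pairs, with 22 genes for deltaMBD and deltaCC, 16 for deltaMBD and GFP, 12 for deltaCC and WT, and 7 for GFP and WT.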

How the data were processed

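SUZ12 ChIP-seq was done in 4 libraries of Mbd3-knockout ESCs, 1 per group. Per the labels' protocols, they were sequenced single-end on a NextSeq 500. Build mm9, MACS2 and bcl2fastq 2.18.0.12 are named in the submitters' processing notes. The aligner is not given in the sources used here, nor is the peak threshold or the use of the input. Per the file headers, the authors linked peaks to genes with GREAT 3.0.0, up to 5000 bp from a start site, with curated domains added. The deposited tables hold the distance from start site to peak midpoint in bp, and no coordinate, width, height or read number, so the depth is unknown.

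Lines of the same symbol were pooled, and 106 pairs beyond 5000 bp were left out. The rule, the 24 families (symbol patterns) and the named genes were chosen with earlier results of these data known. Named genes were those with an upstream peak in all 4 libraries and the narrowest or widest span or in a family, those with the most upstream peaks, family genes first among upstream genes not listed in the other library, and genes shared by deltaMBD and WT or by deltaCC and GFP alone. A few genes under this rule are not reported here. Some further genes are named as examples and were chosen after their values were seen. Of 613 symbols, 586 matched a RefSeq symbol (GRCm38.p6), 13 a synonym and 14 none. Zfp319 has 2 start sites under its symbol. Intervals are exact 95% binomial (Clopper-Pearson). The matching was tested on simulated tables. Alternatives were other limits, match windows, peaks linked to several genes, and lists without Hox or repeated genes. The tools were Python 3.11.15 with SciPy 1.17.1, NumPy 2.4.6 and, for plots, matplotlib 3.10.9.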

Additional observations from a re-analysis of the deposited data

How the results depend on the processing

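No paired analysis was possible because the labels carry no replicate numbers and each group has 1 library; no library can be left out within a group. When only centres over 2000 bp upstream were taken, upstream peaks numbered 259 in deltaMBD, 251 in deltaCC, 197 in GFP and 219 in WT, so the order of deltaCC and WT was turned. It was also turned when peaks linked to any number of genes were taken, with 420 in deltaCC and 416 in WT. The matched share moved with the match window. At 500 bp the deltaMBD peaks were matched in deltaCC at 27.3%, in GFP at 21.6% and in WT at 37.6%. The deltaCC peaks were matched in deltaMBD at 32.6%, in GFP at 35.1% and in WT at 30.1%, the GFP peaks in deltaMBD at 31.7%, in deltaCC at 43.9% and in WT at 29.5%, and the WT peaks in deltaMBD at 46.7%, in deltaCC at 30.0% and in GFP at 23.1%. At 2000 bp the deltaMBD peaks were matched in deltaCC at 63.0%, in GFP at 54.5% and in WT at 76.2%, the deltaCC peaks in deltaMBD at 70.2%, in GFP at 75.9% and in WT at 66.9%, the GFP peaks in deltaMBD at 66.1%, in deltaCC at 77.1% and in WT at 58.6%, and the WT peaks in deltaMBD at 81.4%, in deltaCC at 69.0% and in GFP at 54.8%. When only an upstream peak could be a match, the deltaMBD peaks were matched in deltaCC at 37.6%, in GFP at 28.5% and in WT at 49.1%, the deltaCC peaks in GFP at 48.1%, the GFP peaks in deltaCC at 53.9%, and the WT peaks in deltaMBD at 58.8% and in deltaCC at 40.2%. For the settings with peaks linked to any number of genes, with an outer limit of 4000 bp, without Hox genes, and without symbols of repeated genes (the last chosen after seeing the data), counts stayed within 1.5 times and shares within their intervals. The comparison of CpG content over the set was not run, and genes without a promoter window would be missing from it. Widths are not in the tables, so the part of broad regions being divided differently by the peak caller was not tested. Low depth in a library and a missing peak cannot be told apart.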

Other observations

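In GFP, 1 upstream peak was listed at mt-Nd1, a gene of the mitochondrial genome, at -1379 bp.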
